A study of Mus musculus with 9 samples.

Results

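The genes described here are 40 genes of the mitotic spindle, the kinetochore and the mitotic checkpoints. They were chosen by symbol for their known roles and matched by Ensembl gene identifier. All 40 were among the 35771 rows of the expression table, and all 40 were among the 13424 genes left after a filter on low counts. They fall into 9 roles, from the cyclins that start mitosis to the proteins that compact and separate chromosomes.

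RNA was sequenced from mouse embryonic stem cells (ESCs) that were homozygous for iMOS T1-Myc, carried RERT and had a mixed strain background. The allele gives a mosaic in which cells carry different numbers of extra copies of Myc, a transcription factor that promotes growth, together with the yellow fluorescent protein EYFP. Cultures were exposed to 20 µM 4-hydroxytamoxifen for 24 h, and 24 h after its removal cells were sorted by EYFP level. Cells with 2 extra copies ("2-extra") and cells with no extra copy ("no-extra") were collected from these mosaic cultures. Sorted cells of the same homozygous line without induction ("uninduced") were the control. There were 3 libraries in each of the 3 groups. All 9 came from ESCs grown with LIF on gelatin-coated plates. The labels repeat the tamoxifen text for the uninduced samples, so their group was taken from the titles and the design text. The design text calls the 3 libraries of a group biological replicas, but nothing says that they came from separate cultures. The p-values therefore measure the spread between these libraries.

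As background, transcripts of mitotic genes build up in G2 and are broken down or repressed after division. Cyclin-bound CDK1 and the Aurora and Polo-like kinases start mitosis. The checkpoint then holds the anaphase-promoting complex in check until every kinetochore is attached. Many of these genes share a promoter layout in which NF-Y binds CCAAT boxes and the DREAM or MuvB complexes, with B-MYB and FOXM1, act at a cell cycle genes homology region (CHR). ESCs divide fast with a short G1 phase and express these genes at high levels. In bulk RNA, fewer cells in mitosis and less of a transcript per cell cannot be told apart.

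Totals per library ran from 4165286 to 8872303 counts. Values below are CPM, counts scaled to the size of each library after TMM scaling, a correction for differences in RNA composition. Myc itself had 138, 147 and 141 CPM in 2-extra cells, 31.7, 30.5 and 32.3 in no-extra cells and 11.5, 14.1 and 14.1 in uninduced cells. The 2-extra libraries were the highest, as labelled. The no-extra libraries lay above the uninduced ones (log2 1.24, SE 0.096, adjusted p = 1.12e-11), although neither group is labelled as carrying an extra copy. Markers of ESCs summed to 3642 to 3824 CPM in 2-extra, 3914 to 3998 CPM in no-extra and 3751 to 3813 CPM in uninduced libraries, with all 10 at 1 CPM or more. The 3 comparisons between the groups share libraries, so their results are not independent of each other.

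Mitotic transcripts were at their lowest in no-extra cells. Summed over the 40 genes, they came to 8582, 8503 and 8483 CPM in 2-extra cells, 7348, 7315 and 7338 CPM in no-extra cells and 8395, 8327 and 8318 CPM in uninduced cells. The 3 no-extra libraries lay below all others, at a mean of 86% of the 2-extra level and 87.9% of the uninduced level. The 2-extra libraries lay just above the uninduced ones, at 102% of their mean. Of the 40 genes 35 (87.5%) had their lowest group mean in no-extra cells, against 28% of all genes tested. The order 2-extra, uninduced, no-extra from high to low held for 22 genes, and the order uninduced, 2-extra, no-extra for 13. Over all genes tested these orders held for 14% and 13.9%. An F-test of all 3 groups at once (edgeR quasi-likelihood) called 32 of the 40 genes at an adjusted p below 0.05, against a background of 31.0% of all genes.

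**Figure D1:**
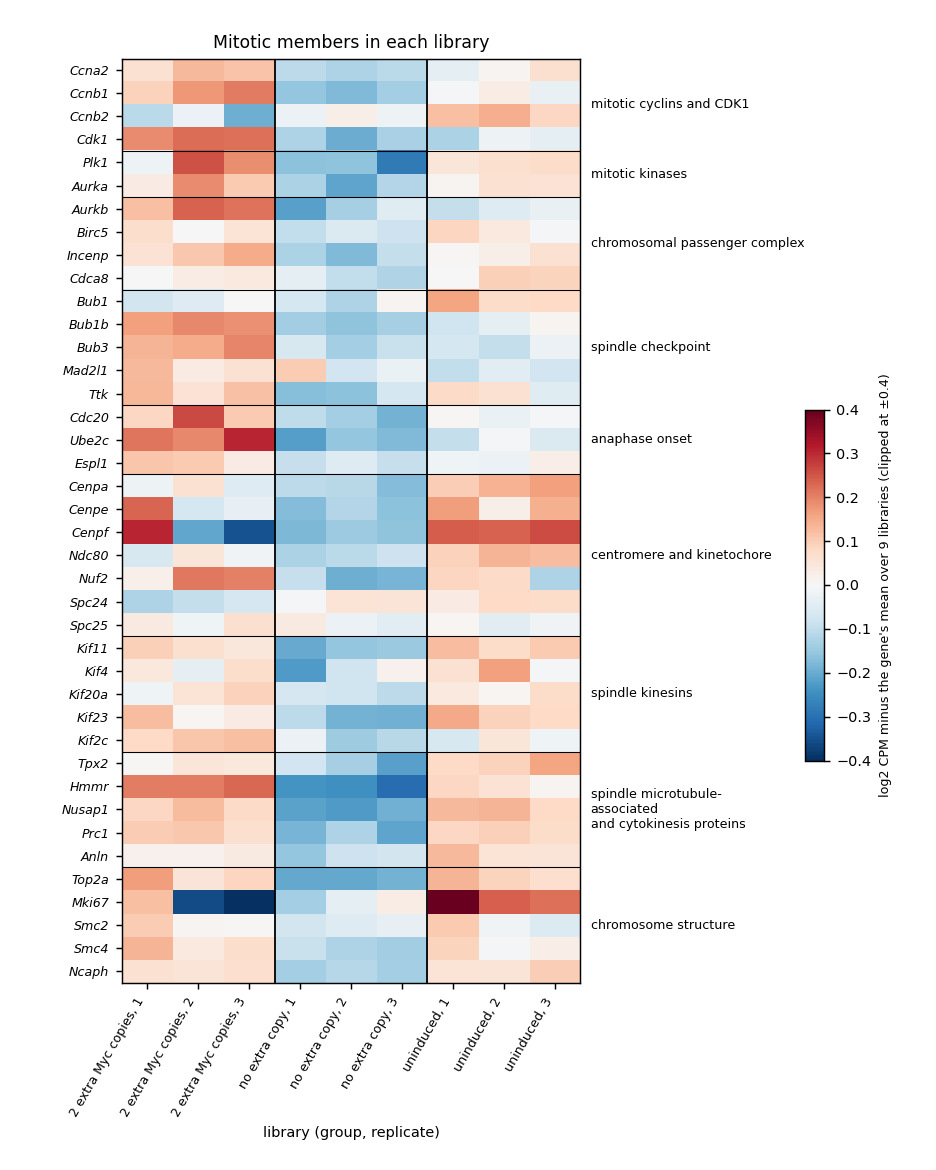
Deviation of each of the 40 mitotic genes in each library from that gene's mean over the 9 libraries, as log2 CPM (colour, clipped at 0.4 either way), with genes in rows by role and libraries in columns. The no-extra columns are blue in most rows. Mki67 and Cenpf are the rows where 2-extra replicate 1 differs most from replicates 2 and 3.

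Promoter windows of the genes were searched for the motifs of the shared layout named above. RefSeq gave a window from 250 bases before to 50 after the start site (GRCm38.p6) for 33 of the 40. Hmmr, Ube2c and Cdk1 had the largest rises of 2-extra over no-extra cells, Top2a has the most CHR matches, and Nusap1 has a large change with no match to either motif. Capitals mark the CHR (TTTGAA or TTCGAA) and the CCAAT box, on either strand, 5′ to 3′ along the gene.
Hmmr, chr11:40733388-40733687, minus strand: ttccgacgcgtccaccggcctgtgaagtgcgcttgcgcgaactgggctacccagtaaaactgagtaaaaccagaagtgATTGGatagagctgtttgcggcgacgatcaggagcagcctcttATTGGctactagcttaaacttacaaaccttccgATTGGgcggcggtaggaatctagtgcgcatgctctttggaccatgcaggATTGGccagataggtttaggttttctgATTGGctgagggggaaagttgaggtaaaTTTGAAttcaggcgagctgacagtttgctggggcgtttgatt
Ube2c, chr2:164769679-164769978, plus strand: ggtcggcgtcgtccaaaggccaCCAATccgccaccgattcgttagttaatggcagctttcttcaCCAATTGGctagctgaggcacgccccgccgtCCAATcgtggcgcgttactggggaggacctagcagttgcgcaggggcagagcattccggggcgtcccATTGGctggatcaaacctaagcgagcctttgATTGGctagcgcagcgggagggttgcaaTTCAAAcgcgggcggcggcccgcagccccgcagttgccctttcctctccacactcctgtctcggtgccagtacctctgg
Cdk1, chr10:69352863-69353162, minus strand: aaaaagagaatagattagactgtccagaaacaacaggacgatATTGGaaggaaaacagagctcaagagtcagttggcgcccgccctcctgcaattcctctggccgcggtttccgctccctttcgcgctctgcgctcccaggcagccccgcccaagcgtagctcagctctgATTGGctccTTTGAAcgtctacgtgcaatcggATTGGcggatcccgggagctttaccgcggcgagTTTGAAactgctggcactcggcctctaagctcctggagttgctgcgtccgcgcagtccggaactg
Top2a, chr11:99024140-99024439, minus strand: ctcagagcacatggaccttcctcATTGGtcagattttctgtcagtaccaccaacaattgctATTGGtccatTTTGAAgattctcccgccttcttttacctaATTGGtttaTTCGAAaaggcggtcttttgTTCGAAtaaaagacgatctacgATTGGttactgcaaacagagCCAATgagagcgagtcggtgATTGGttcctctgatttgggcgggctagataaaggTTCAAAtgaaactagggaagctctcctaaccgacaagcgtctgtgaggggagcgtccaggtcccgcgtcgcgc
Nusap1, chr2:119618048-119618347, plus strand: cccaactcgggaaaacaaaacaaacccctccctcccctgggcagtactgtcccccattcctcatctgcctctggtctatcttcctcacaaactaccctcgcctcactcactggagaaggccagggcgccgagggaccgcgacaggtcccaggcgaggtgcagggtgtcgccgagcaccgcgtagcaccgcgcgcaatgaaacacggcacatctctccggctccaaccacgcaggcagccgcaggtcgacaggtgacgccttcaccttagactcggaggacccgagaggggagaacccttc

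A CHR match in either spelling was found in the windows of 26 of the 33 genes (78.8%), against 16% of 10212 tested genes with a window. CCAAT was found in 25 of the 33 (75.8%), against 43.8% of tested genes. Both motifs together were found in 23 of the 33 (69.7%), against 6.91% of tested genes. A separate list of other mitotic genes was made of kinetochore, anaphase, cohesin and condensin, spindle and regulator genes. Of its 96 genes with a window, 51% had a CHR match. In a list of DNA replication genes it was 20% of 30 genes, although 70% of the 30 had CCAAT. The E-box CACGTG, the best known Myc binding motif, was in 3 of the 33 genes (9.09%), against 12% of tested genes. Some genes have more than 1 window, and a match in any of them was counted. Over the 35 windows of the 33 members, CHR matches lay at a median of 15 bases before the start site. CCAAT matches lay at a median of 71 bases before it. In 1 window a CHR and a CCAAT match shared a base. Birc5, Ccnb1, Cenpe, Mad2l1, Ncaph, Nuf2 and Nusap1 had no match to either CHR spelling in the window. Other spellings of the CHR were not searched, so these genes may still hold one. The median log2 change of 2-extra over no-extra cells was 0.21 for the 26 genes with a match and 0.20 for the 7 without. For no-extra over uninduced cells the medians were -0.18 and -0.18. A match is only a run of letters, and no binding was measured here.

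**Figure D2:**
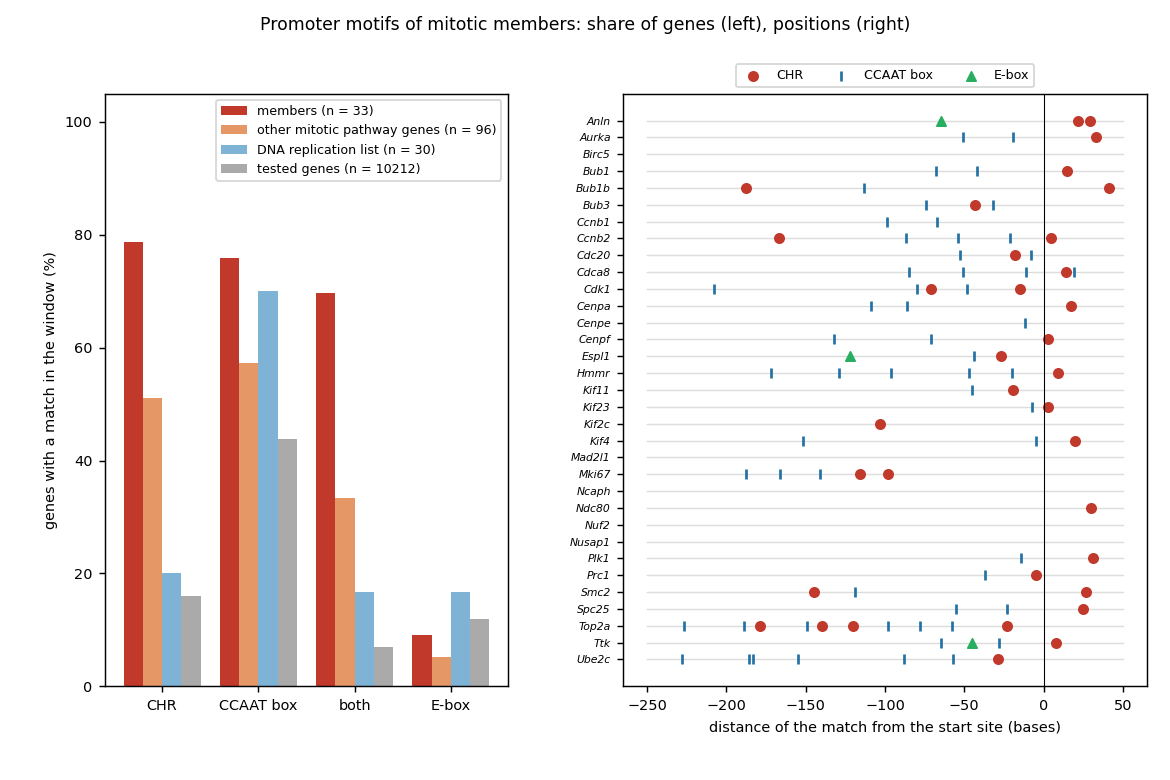
Left, share of genes (%) with a CHR, a CCAAT box, both, or an E-box in the 300-base window, for 33 members, 96 other mitotic genes, 30 DNA replication genes and 10212 tested genes. Right, position of each match in each member's window, in bases from the start site. CHR matches reach 78.8% of members against 16% of tested genes, and most lie near the start site downstream of the CCAAT boxes.

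Cells with 2 extra copies were first set against no-extra cells of the mosaic cultures. Of the 40 genes 27 rose, against a background of 8.30% of all genes called higher. Among the 4530 genes whose mean level was at least that of the lowest member, the backgrounds were 18.4% higher and 8.26% lower. None fell in the edgeR test, against a background of 7.70%; at an unadjusted p below 0.05 the lower genes were 2, Ccnb2 and Spc24, and DESeq2 and limma-voom each called 0. The median log2 change of the 40 was 0.20, against -0.01 for all genes tested. In 32 genes all 2-extra libraries lay above all no-extra libraries, and in 2 all lay below, against backgrounds of 15.4% and 15.2%. The rises were small, from 1.09-fold (Kif20a, Anln) to 1.39-fold (Hmmr). When libraries were scaled by their totals only, calls over all genes were 779 higher and 1354 lower, against 1114 and 1034 as reported, and Ccnb2 passed the test as lower.

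No-extra cells were then set against uninduced cells, to see where the cells without an extra copy stood relative to cells never induced. These groups differ both in induction with tamoxifen and in growth in a mosaic culture, which cannot be told apart here. The same holds for 2-extra against uninduced cells, which also differ in extra copies. Of the 40 genes 24 fell, against a background of 6.39%, or 11.4% among the 4530 genes at or above the lowest member's level (10.7% higher). None rose in the edgeR test, against a background of 7.10%; at an unadjusted p below 0.05, in DESeq2 and in limma-voom the number was also 0. The median log2 change was -0.17, against 0.00 for all genes tested. In 30 genes all no-extra libraries lay below all uninduced libraries and in 0 above, against backgrounds of 15.4% and 16.1%. DESeq2 called 14 genes lower, with 363 lower over all genes, against 858 as reported. Without no-extra replicate 2, the deepest library, edgeR called 15 (555 over all genes). Without 2-extra replicate 1 it called 30 (1118 over all genes). With library size alone the split over all genes was 1105 higher and 743 lower, against 953 and 858.

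Between 2-extra and uninduced cells the counts of called genes lay near the background. There were 9 that rose and 4 that fell, against backgrounds of 12.8% and 12.1%, or 24.0% and 14.6% among those 4530 genes. The median log2 change was 0.02, against -0.01 for all genes, and it turned to -0.00464 with library size alone. Groups did not overlap for 11 higher and 8 lower genes, against backgrounds of 19.1% and 19.4%. The counts moved with single libraries. Without 2-extra replicate 1 there were 13 higher and 6 lower (2004 and 1715 over all genes). The lower count was 2 without 2-extra replicate 3 or without any 1 of the uninduced replicates 1, 2 and 3. Over all genes the lower counts were then 1106, 1205, 1267 and 1331. The genes that rose were Cdk1, Ccnb1, Aurkb, Bub1b, Bub3, Mad2l1, Cdc20, Ube2c and Hmmr. Those that fell were Ccnb2, Bub1, Cenpa and Spc24. Over all genes, library size alone gave 1498 higher and 1841 lower, against 1721 and 1629.

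**Figure D3:**
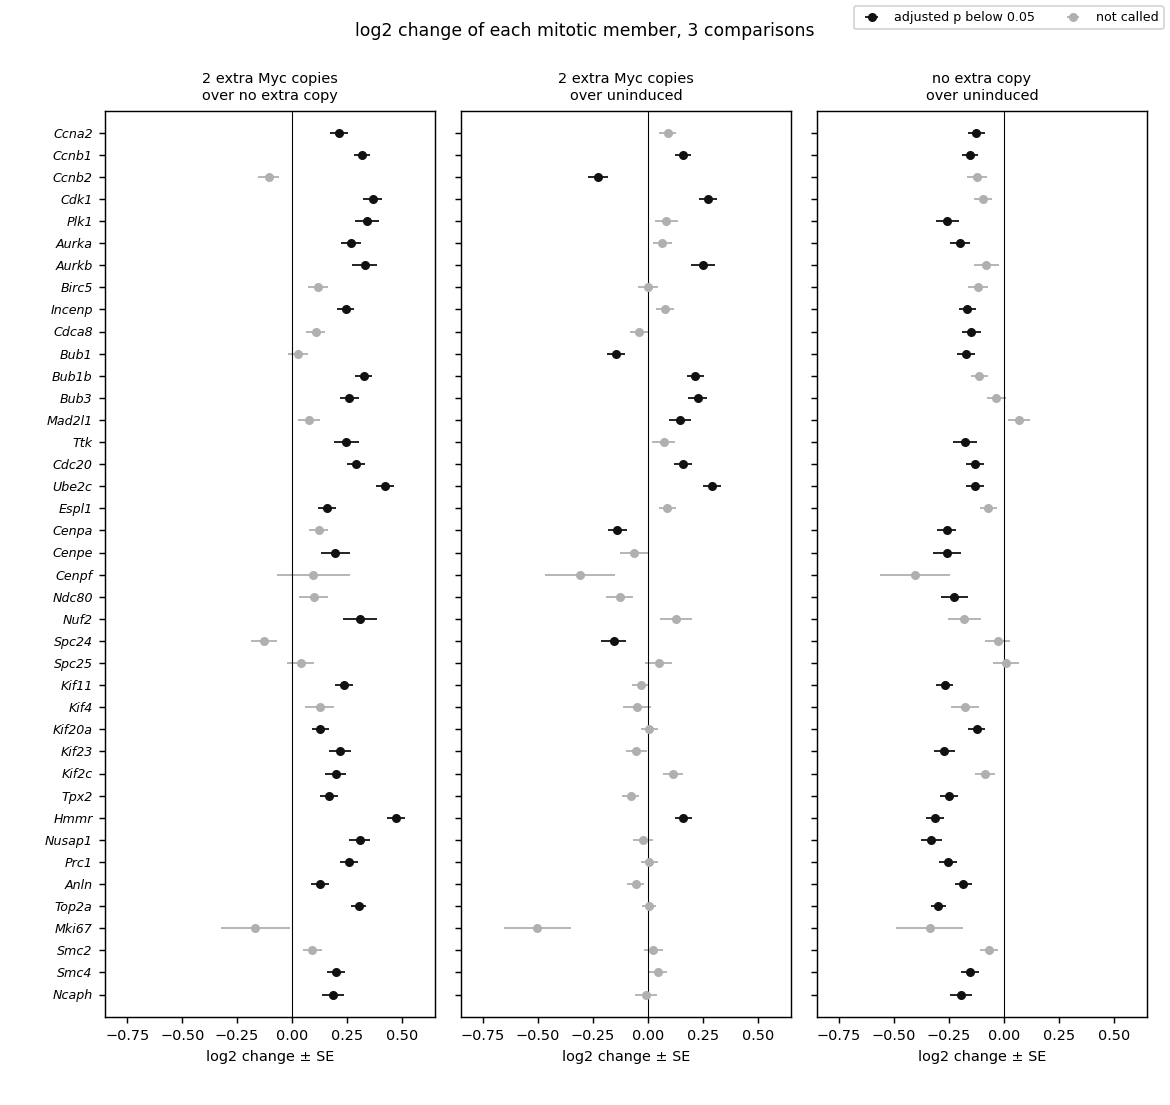
log2 change (points) with SE (bars) of each of the 40 genes in each comparison, with called genes in black and the rest in grey. In the left panel 27 genes are called, all right of 0. In the right panel 24 are called, all left of 0, and in the middle panel 9 are called right and 4 left of 0.

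Of the mitotic cyclins and CDK1, 3 of 4 rose in 2-extra over no-extra cells. The backgrounds given above for each comparison, over all genes and over the 4530 genes, apply to every role, whose small counts are given as counts only. Cdk1 (ENSMUSG00000019942, chr10:69335146-69352938, minus strand) encodes the kinase that triggers mitosis. It had 217, 222 and 222 CPM in 2-extra cells, 175, 166 and 174 in no-extra cells and 174, 188 and 186 in uninduced cells. All 2-extra libraries lay above the other 6, while no-extra and uninduced libraries overlapped. Cdk1 was 1.29-fold higher in 2-extra than in no-extra cells (log2 0.37, SE 0.042, adjusted p = 1.49e-07) and 1.21-fold higher than in uninduced cells (log2 0.27, SE 0.041, adjusted p = 6.34e-06). Its difference between no-extra and uninduced cells did not pass (log2 -0.09, SE 0.042, adjusted p = 0.148). Ccnb1 (ENSMUSG00000041431, chr13:100778650-100786570, minus strand), cyclin B1, is the main partner of CDK1 at mitotic entry. Its level was 513, 543 and 556 CPM in 2-extra cells, 432, 426 and 438 in no-extra cells and 479.7, 491 and 472 in uninduced cells, so the 3 groups did not overlap. It was 1.25-fold higher in 2-extra than in no-extra cells (log2 0.32, SE 0.037, adjusted p = 1.77e-07), 1.12-fold higher in 2-extra than in uninduced cells (log2 0.16, SE 0.036, adjusted p = 0.00111) and 1.11-fold lower in no-extra than in uninduced cells (log2 -0.16, SE 0.037, adjusted p = 0.00318). Each of these Ccnb1 calls held in all 19 alternative settings, among them each library left out in turn.

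Ccna2 (ENSMUSG00000027715, chr3:36564865-36572150, minus strand) encodes cyclin A2, which acts from S phase to early mitosis. It had 239, 250.4 and 248 CPM in 2-extra cells, 213, 210.0 and 212 in no-extra cells and 223, 230.5 and 239 in uninduced cells. The no-extra libraries were the lowest, and 2-extra replicate 1 lay just below uninduced replicate 3. Ccna2 was 1.16-fold higher in 2-extra than in no-extra cells (log2 0.21, SE 0.041, adjusted p = 0.000277). Its fall in no-extra against uninduced cells (log2 -0.12, SE 0.040, adjusted p = 0.0342) was lost without no-extra replicate 1, 2 or 3, or uninduced replicate 2 or 3, with library size alone, with no filter on low counts and in DESeq2, with an adjusted p of 0.0121 to 0.210 over the 19 settings. Ccnb2 (ENSMUSG00000032218, chr9:70407692-70421547, minus strand), is cyclin B2, another B-type cyclin. Its level was 129, 136 and 121 CPM in 2-extra cells, 136, 141 and 136 in no-extra cells and 150.5, 153 and 147 in uninduced cells. The 3 groups did not overlap, with the highest 2-extra library just under the lowest no-extra one and the uninduced libraries on top. Ccnb2 was 1.17-fold lower in 2-extra than in uninduced cells (log2 -0.23, SE 0.047, adjusted p = 0.000414), a call held in all 19 settings. Against no-extra cells it did not pass (log2 -0.11, SE 0.048, adjusted p = 0.133).

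Both mitotic kinases rose in 2-extra over no-extra cells and fell in no-extra against uninduced cells. Plk1 (ENSMUSG00000030867, chr7:122159439-122169873, plus strand), Polo-like kinase 1, drives centrosome maturation and mitotic entry. It had 164, 198 and 189 CPM in 2-extra cells, 148, 148 and 137 in no-extra cells and 172, 174 and 175 in uninduced cells. The no-extra libraries were the lowest, and 2-extra replicate 1 lay below all uninduced libraries while replicates 2 and 3 lay above them. Plk1 was 1.27-fold higher in 2-extra than in no-extra cells (log2 0.34, SE 0.054, adjusted p = 8.31e-05) and 1.19-fold lower in no-extra than in uninduced cells (log2 -0.26, SE 0.054, adjusted p = 0.00156). Between 2-extra and uninduced cells the test did not pass (log2 0.08, SE 0.052, adjusted p = 0.263); it passed without 2-extra replicate 1 (adjusted p = 0.00279 for Plk1). Aurka (ENSMUSG00000027496, chr2:172356190-172370535, minus strand), Aurora kinase A, acts at spindle poles. Its level was 171, 191 and 179.9 CPM in 2-extra cells, 153, 145 and 154 in no-extra cells and 169, 175 and 174 in uninduced cells, again with no-extra lowest and the other groups overlapping. It was 1.20-fold higher in 2-extra than in no-extra cells (log2 0.27, SE 0.046, adjusted p = 8.28e-05) and 1.15-fold lower in no-extra than in uninduced cells (log2 -0.20, SE 0.045, adjusted p = 0.00205).

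The chromosomal passenger complex, which corrects faulty attachments and works in cytokinesis, had 2 of 4 members higher in 2-extra than in no-extra cells. Aurkb (ENSMUSG00000020897, chr11:69045647-69051664, plus strand), its Aurora B kinase, had 93.04, 101 and 99.4 CPM in 2-extra cells, 73.4, 77.97 and 82.7 in no-extra cells and 80.1, 82.5 and 83.9 in uninduced cells. The 2-extra libraries lay above all others, and no-extra and uninduced libraries overlapped. Aurkb was 1.26-fold higher in 2-extra than in no-extra cells (log2 0.33, SE 0.056, adjusted p = 7.12e-05) and 1.19-fold higher than in uninduced cells (log2 0.25, SE 0.054, adjusted p = 0.000721). Incenp (ENSMUSG00000024660, chr19:9872296-9899551, minus strand), the scaffold of the complex, had 246, 255 and 262 CPM in 2-extra cells, 217, 209 and 221 in no-extra cells and 237, 240.2 and 246 in uninduced cells. No-extra was lowest, and 2-extra replicate 1 lay just below uninduced replicate 3. Incenp was 1.18-fold higher in 2-extra than in no-extra cells (log2 0.24, SE 0.041, adjusted p = 5.59e-05). Its fall in no-extra against uninduced cells (log2 -0.17, SE 0.040, adjusted p = 0.00418) was lost without no-extra replicate 2, with an adjusted p of 0.000685 to 0.0556 over the 19 settings. Cdca8 (ENSMUSG00000028873, chr4:124918465-124939311, minus strand), borealin, helps to bring the complex to the centromere. It had 161, 165 and 166 CPM in 2-extra cells, 157, 151 and 148 in no-extra cells and 162, 173 and 172 in uninduced cells, with the no-extra libraries lowest by a narrow gap. It passed only in no-extra against uninduced cells (log2 -0.15, SE 0.043, adjusted p = 0.0190), and that call was lost without no-extra replicate 2 or 3, or uninduced replicate 2 or 3 and in DESeq2 (adjusted p of 0.00668 to 0.188 over the settings). Birc5, survivin, the fourth subunit, did not pass in any comparison (2-extra over no-extra log2 0.12, adjusted p = 0.0766).

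In the spindle checkpoint 3 of 5 genes rose in 2-extra over no-extra cells, against a background of 8.30% of all genes. Over uninduced cells 3 rose and 1 fell, against backgrounds of 12.8% and 12.1%, and DESeq2 called 2 and 0. Bub1b (ENSMUSG00000040084, chr2:118598211-118641591, plus strand) encodes BUBR1, part of the complex that blocks anaphase. It had 268, 273 and 271 CPM in 2-extra cells, 216, 213 and 217 in no-extra cells and 226, 233 and 241 in uninduced cells, and the 3 groups did not overlap. Bub1b was 1.25-fold higher in 2-extra than in no-extra cells (log2 0.33, SE 0.039, adjusted p = 3.60e-07) and 1.16-fold higher than in uninduced cells (log2 0.22, SE 0.039, adjusted p = 7.56e-05). Bub3 (ENSMUSG00000066979, chr7:131560222-131571895, plus strand), the partner that brings BUBR1 and BUB1 to kinetochores, had 189, 191 and 197 CPM in 2-extra cells, 164, 156 and 162 in no-extra cells and 164, 161 and 169 in uninduced cells. The 2-extra libraries were the highest and the other groups overlapped. Bub3 was 1.20-fold higher in 2-extra than in no-extra cells (log2 0.26, SE 0.042, adjusted p = 4.27e-05) and 1.17-fold higher than in uninduced cells (log2 0.23, SE 0.042, adjusted p = 0.000106).

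Ttk (ENSMUSG00000038379, chr9:83834689-83872389, plus strand) encodes MPS1, the kinase that starts checkpoint signalling. It had 94.97, 90.1 and 93.9 CPM in 2-extra cells, 76.8, 77.2 and 82.4 in no-extra cells and 91.3, 90.3 and 83.7 in uninduced cells. No-extra was lowest, by a narrow gap. It was 1.19-fold higher in 2-extra than in no-extra cells (log2 0.25, SE 0.056, adjusted p = 0.00200). The fall in no-extra against uninduced cells (log2 -0.18, SE 0.055, adjusted p = 0.0288) was lost without no-extra replicate 1 or 2, or uninduced replicate 1 or 2 and in DESeq2 (adjusted p of 0.0142 to 0.296 over the settings). Bub1 (ENSMUSG00000027379, chr2:127801122-127831865, minus strand), the kinase that recruits checkpoint proteins to kinetochores, did not rise in either comparison of 2-extra cells. It had 180.0, 183 and 189 CPM in 2-extra cells, 180.3, 174 and 191 in no-extra cells and 211, 199 and 200.1 in uninduced cells. The uninduced libraries were the highest, and 2-extra and no-extra libraries overlapped. Bub1 was 1.11-fold lower in 2-extra than in uninduced cells (log2 -0.14, SE 0.043, adjusted p = 0.0112), a call lost without uninduced replicate 1 and in DESeq2 (adjusted p of 0.00270 to 0.144). It was 1.13-fold lower in no-extra than in uninduced cells (log2 -0.17, SE 0.043, adjusted p = 0.00511), a call lost without no-extra replicate 2 and in DESeq2 (adjusted p of 0.000960 to 0.0833). Mad2l1, the MAD2 protein that binds CDC20, rose in 2-extra over uninduced cells (log2 0.15, SE 0.050, adjusted p = 0.0280), and the call was lost without 2-extra replicate 1, or uninduced replicate 1 or 3, with library size alone and in DESeq2 (adjusted p of 0.000345 to 0.141).

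All 3 genes of anaphase onset rose in 2-extra over no-extra cells. Ube2c (ENSMUSG00000001403, chr2:164769898-164778822, plus strand) encodes the ubiquitin-conjugating enzyme of the anaphase-promoting complex, and its promoter window above holds 1 CHR. It had 281, 277 and 299 CPM in 2-extra cells, 208, 218 and 215 in no-extra cells and 227, 242 and 233 in uninduced cells, with no overlap between the 3 groups. Ube2c was 1.34-fold higher in 2-extra than in no-extra cells (log2 0.42, SE 0.042, adjusted p = 9.50e-09) and 1.22-fold higher than in uninduced cells (log2 0.29, SE 0.041, adjusted p = 1.74e-06). Its fall in no-extra against uninduced cells (log2 -0.13, SE 0.042, adjusted p = 0.0309) was lost without no-extra replicate 1, 2 or 3, or uninduced replicate 2 or 3, with library size alone and in DESeq2 (adjusted p of 0.00322 to 0.187). Cdc20 (ENSMUSG00000006398, chr4:118432901-118437352, minus strand), the activator that the checkpoint restrains, had 331, 375 and 336 CPM in 2-extra cells, 291, 284 and 274 in no-extra cells and 313, 307 and 311 in uninduced cells, and again the groups did not overlap. It was 1.22-fold higher in 2-extra than in no-extra cells (log2 0.29, SE 0.043, adjusted p = 9.01e-06). Against uninduced cells it was 1.12-fold higher in 2-extra cells (log2 0.16, SE 0.042, adjusted p = 0.00453), a call lost without 2-extra replicate 2 (adjusted p of 0.000134 to 0.0870). Its fall in no-extra against uninduced cells (log2 -0.13, SE 0.043, adjusted p = 0.0360) was lost without no-extra replicate 2 or 3, or uninduced replicate 1, 2 or 3, with library size alone, in DESeq2 and in limma-voom (adjusted p of 0.00119 to 0.165). Espl1 (ENSMUSG00000058290, chr15:102296266-102324357, plus strand) encodes separase, the protease that cuts cohesin. It had 286, 285 and 271 CPM in 2-extra cells, 248, 256 and 249 in no-extra cells and 262, 261 and 269.7 in uninduced cells. The 3 groups did not overlap, and only the rise in 2-extra over no-extra cells passed (log2 0.16, SE 0.039, adjusted p = 0.00433).

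**Figure D4:**
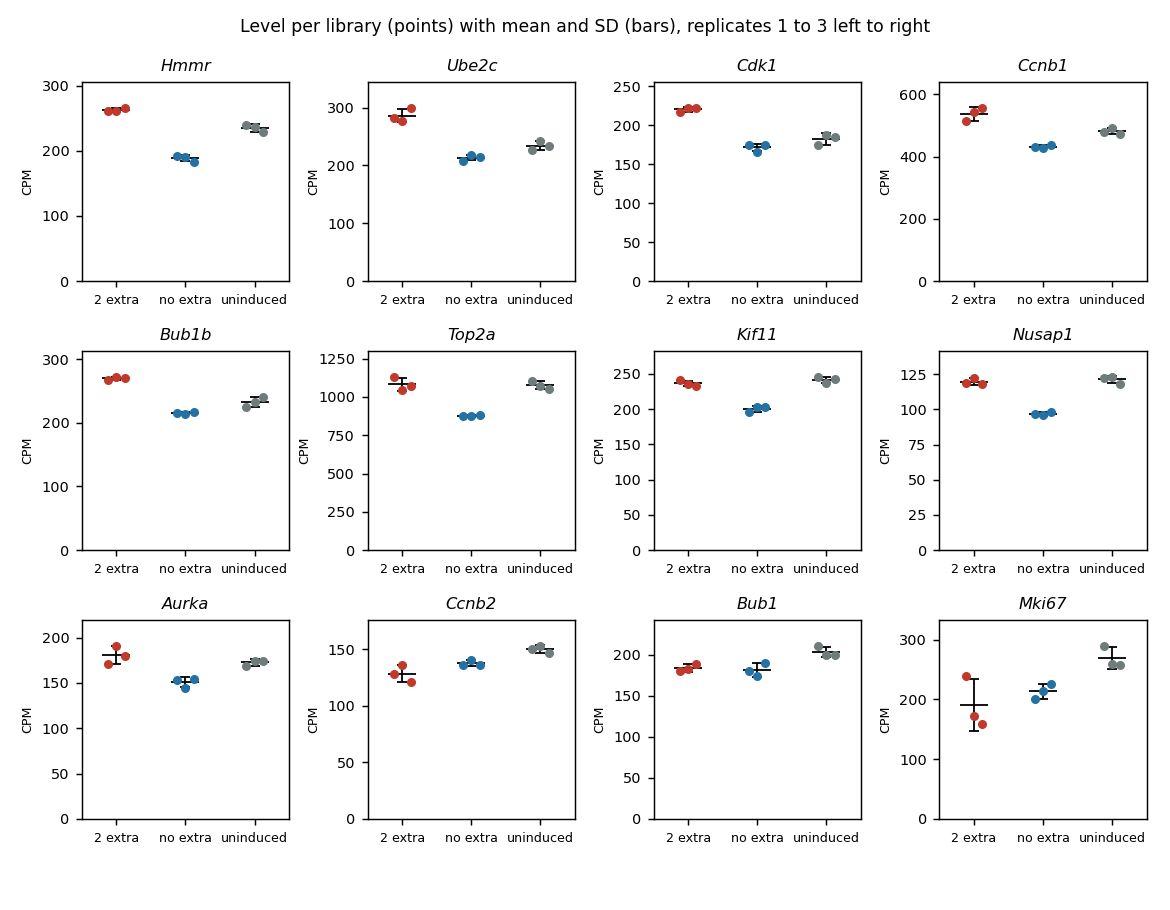
Level (CPM, axis from 0) of 12 of the genes in each library (points), with group mean and SD (bars, n = 3). Hmmr, Ube2c, Cdk1, Ccnb1 and Bub1b are highest in 2-extra cells. Top2a, Kif11, Nusap1 and Aurka are lowest in no-extra cells with the other groups overlapping, and Ccnb2, Bub1 and Mki67 are highest in uninduced cells.

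Of the centromere and kinetochore genes, 2 of 7 rose in 2-extra over no-extra cells (Nuf2 and Cenpe), against a background of 8.30%. In 2-extra against uninduced cells 2 of 7 fell (Cenpa and Spc24), against 12.1%, and in no-extra against uninduced cells 3 of 7 fell, against 6.39%. DESeq2 called 0 of the 7 in either comparison of 2-extra cells and 2 lower in no-extra against uninduced cells. Cenpa (ENSMUSG00000029177, chr5:30666777-30674830, plus strand) encodes the histone H3 variant that marks centromeres. It had 169.8, 179.7 and 166 CPM in 2-extra cells, 160.1, 159.5 and 153 in no-extra cells and 185, 189.9 and 193 in uninduced cells, with no overlap between the 3 groups. Cenpa was 1.20-fold lower in no-extra than in uninduced cells (log2 -0.26, SE 0.043, adjusted p = 3.94e-05). It was also 1.10-fold lower in 2-extra than in uninduced cells (log2 -0.14, SE 0.042, adjusted p = 0.0140), but this call was lost without 2-extra replicate 3, or uninduced replicate 2 or 3 and in DESeq2 (adjusted p of 0.00477 to 0.172). Nuf2 (ENSMUSG00000026683, chr1:169497934-169531464, minus strand), an arm of the NDC80 complex that holds microtubules, had 49.8, 56.96 and 56.7 CPM in 2-extra cells, 46.1, 42.9 and 43.2 in no-extra cells and 52.2, 51.9 and 45.2 in uninduced cells. All 2-extra libraries lay above the no-extra libraries, and the uninduced libraries overlapped with both. Nuf2 was 1.24-fold higher in 2-extra than in no-extra cells (log2 0.31, SE 0.076, adjusted p = 0.00403), a call lost in DESeq2 (adjusted p of 0.000273 to 0.0558).

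Cenpe (ENSMUSG00000045328, chr3:135212537-135273611, plus strand), a kinetochore motor that lines up chromosomes, had 144, 117 and 119.8 CPM in 2-extra cells, 109, 113 and 109 in no-extra cells and 138, 124 and 135 in uninduced cells. The no-extra libraries were the lowest, and 2-extra replicate 1 lay above replicates 2 and 3. The rise in 2-extra over no-extra cells (log2 0.20, SE 0.066, adjusted p = 0.0497) was lost without 2-extra replicate 1, or no-extra replicate 1, 2 or 3, or uninduced replicate 1 or 3, with library size alone, in DESeq2, in limma-voom and with only the 6 libraries compared (adjusted p of 0.000229 to 0.158). The fall in no-extra against uninduced cells (log2 -0.26, SE 0.064, adjusted p = 0.00988) was lost without no-extra replicate 1, or uninduced replicate 1 or 3 (adjusted p of 1.55e-05 to 0.0598). Calls differed among the other NDC80 subunits. Ndc80 fell in no-extra against uninduced cells (log2 -0.23, SE 0.062, adjusted p = 0.0118), a call lost without no-extra replicate 2, or uninduced replicate 2 and in DESeq2 (adjusted p of 0.00530 to 0.200). Spc24 (ENSMUSG00000074476, chr9:21755442-21760303, minus strand), which anchors the complex to the inner kinetochore, had 62.96, 64.2 and 65.5 CPM in 2-extra cells, 68.4, 71.3 and 71.04 in no-extra cells and 70.1, 72.4 and 72.2 in uninduced cells. Its 2-extra libraries lay below all others. Spc24 was 1.11-fold lower in 2-extra than in uninduced cells (log2 -0.16, SE 0.058, adjusted p = 0.0452), and the call was lost without 2-extra replicate 1, 2 or 3, or no-extra replicate 2 or 3, or uninduced replicate 1, 2 or 3, with DESeq2 size factors, with no filter on low counts, in DESeq2 and with only the 6 libraries compared (adjusted p of 0.00399 to 0.352). Its partner Spc25 did not pass in any comparison, with all 9 libraries between 62.4 and 67.4 CPM.

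Of the spindle kinesins 4 of 5 rose in 2-extra over no-extra cells, and none passed between 2-extra and uninduced cells in the edgeR test, at an unadjusted p below 0.05 only Kif2c, and 0 in DESeq2. Kif11 (ENSMUSG00000012443, chr19:37376403-37421859, plus strand) encodes Eg5, the motor that pushes spindle poles apart. It had 241, 236 and 232 CPM in 2-extra cells, 196, 202 and 203 in no-extra cells and 246, 237 and 242 in uninduced cells. All no-extra libraries lay below the rest, and the other groups overlapped. Kif11 was 1.18-fold higher in 2-extra than in no-extra cells (log2 0.24, SE 0.040, adjusted p = 6.42e-05) and 1.21-fold lower in no-extra than in uninduced cells (log2 -0.27, SE 0.039, adjusted p = 5.98e-06). Kif23 (ENSMUSG00000032254, chr9:61915905-61946774, minus strand), the motor of centralspindlin in cytokinesis, had 125, 116 and 118 CPM in 2-extra cells, 107, 101 and 101 in no-extra cells and 128, 123 and 122 in uninduced cells, in the same arrangement. It was 1.16-fold higher in 2-extra than in no-extra cells (log2 0.22, SE 0.050, adjusted p = 0.00244) and 1.21-fold lower in no-extra than in uninduced cells (log2 -0.27, SE 0.049, adjusted p = 0.000159). Kif2c (ENSMUSG00000028678, chr4:117159639-117182639, minus strand), the depolymerase MCAK that frees wrong attachments, had 156, 159 and 160.1 CPM in 2-extra cells, 145, 133 and 136 in no-extra cells and 141, 152 and 145 in uninduced cells. Its 2-extra libraries were the highest and the other groups overlapped, with a 1.15-fold rise over no-extra cells (log2 0.20, SE 0.046, adjusted p = 0.00268). Kif20a, which moves the passenger complex to the midzone, rose in 2-extra over no-extra cells (log2 0.13, SE 0.039, adjusted p = 0.0217) and fell in no-extra against uninduced cells (log2 -0.12, SE 0.039, adjusted p = 0.0300). The rise was lost without 2-extra replicate 2 or 3, or no-extra replicate 2 or 3, with library size alone and in DESeq2 (adjusted p of 0.000951 to 0.0989) and the fall without no-extra replicate 1, 2 or 3, or uninduced replicate 1 or 3 and in DESeq2 (adjusted p of 0.00815 to 0.150). Kif4, a chromosome-bound motor, did not pass in any comparison.

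All 5 spindle microtubule-associated and cytokinesis genes rose in 2-extra over no-extra cells and fell in no-extra against uninduced cells. Hmmr (ENSMUSG00000020330, chr11:40701395-40733422, minus strand) encodes a spindle protein that binds microtubules and supports pole focusing. It had 261, 261 and 266 CPM in 2-extra cells, 192, 191 and 183 in no-extra cells and 240.0, 236 and 228 in uninduced cells, and the 3 groups did not overlap. Hmmr was 1.39-fold higher in 2-extra than in no-extra cells (log2 0.47, SE 0.040, adjusted p = 4.13e-10), the largest rise of the 40 in this comparison. It was 1.12-fold higher in 2-extra than in uninduced cells (log2 0.16, SE 0.039, adjusted p = 0.00201) and 1.24-fold lower in no-extra than in uninduced cells (log2 -0.31, SE 0.040, adjusted p = 5.35e-07). Nusap1 (ENSMUSG00000027306, chr2:119618298-119651244, plus strand), which stabilises microtubules near chromosomes, had 119, 122 and 118 CPM in 2-extra cells, 96.5, 95.8 and 98.1 in no-extra cells and 123, 123 and 118 in uninduced cells. The no-extra libraries lay far below the rest, and 2-extra and uninduced libraries overlapped. Nusap1 was 1.24-fold higher in 2-extra than in no-extra cells (log2 0.31, SE 0.049, adjusted p = 2.47e-05) and 1.26-fold lower in no-extra than in uninduced cells (log2 -0.33, SE 0.047, adjusted p = 4.66e-06).

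Prc1 (ENSMUSG00000038943, chr7:80294450-80316259, plus strand), which bundles microtubules at the spindle midzone, had 211, 213 and 206 CPM in 2-extra cells, 173, 181 and 170.1 in no-extra cells and 209, 210.5 and 207 in uninduced cells. No-extra was again lowest, and the other groups overlapped. Prc1 was 1.20-fold higher in 2-extra than in no-extra cells (log2 0.26, SE 0.041, adjusted p = 2.47e-05) and 1.19-fold lower in no-extra than in uninduced cells (log2 -0.25, SE 0.040, adjusted p = 2.43e-05). Tpx2, the activator of Aurora A, rose in 2-extra over no-extra cells (log2 0.17, SE 0.041, adjusted p = 0.00343) and fell in no-extra against uninduced cells (log2 -0.25, SE 0.040, adjusted p = 3.18e-05). Anln, anillin of the cytokinetic ring, fell in no-extra against uninduced cells (log2 -0.18, SE 0.040, adjusted p = 0.00126). Its rise in 2-extra over no-extra cells (log2 0.13, SE 0.040, adjusted p = 0.0251) was lost without 2-extra replicate 2 or 3, or no-extra replicate 1 or 2, with library size alone and in DESeq2 (adjusted p of 0.00933 to 0.136).

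In chromosome structure 3 of 5 genes rose in 2-extra over no-extra cells. Top2a (ENSMUSG00000020914, chr11:98992943-99024189, minus strand) encodes topoisomerase II alpha, which untangles sister chromatids. It had 1132, 1045 and 1069 CPM in 2-extra cells, 875, 874 and 883 in no-extra cells and 1107, 1072 and 1054 in uninduced cells, with no-extra lowest and the other groups overlapping. Top2a was 1.23-fold higher in 2-extra than in no-extra cells (log2 0.30, SE 0.034, adjusted p = 1.02e-07) and 1.23-fold lower in no-extra than in uninduced cells (log2 -0.30, SE 0.034, adjusted p = 6.70e-08). Smc4 (ENSMUSG00000034349, chr3:69004738-69034623, plus strand) encodes a core subunit of condensin. It had 268, 251 and 256 CPM in 2-extra cells, 229, 224 and 221 in no-extra cells and 259.6, 243 and 248 in uninduced cells, in the same arrangement. Smc4 was 1.15-fold higher in 2-extra than in no-extra cells (log2 0.20, SE 0.041, adjusted p = 0.000755). Its fall in no-extra against uninduced cells (log2 -0.15, SE 0.041, adjusted p = 0.00919) was lost without uninduced replicate 1 and in DESeq2 (adjusted p of 0.00199 to 0.0747). Ncaph (ENSMUSG00000034906, chr2:127103809-127133954, minus strand), the bridging subunit of condensin I, had 95.1, 94.5 and 95.4 CPM in 2-extra cells, 82.9, 84.2 and 82.9 in no-extra cells and 94.7, 94.6 and 97.5 in uninduced cells. The no-extra libraries were the lowest and the other groups overlapped. The rise in 2-extra over no-extra cells (log2 0.19, SE 0.052, adjusted p = 0.0110) and the fall in no-extra against uninduced cells (log2 -0.19, SE 0.051, adjusted p = 0.00751) were lost in DESeq2 (adjusted p of 0.00815 to 0.106 and of 0.00355 to 0.150). Smc2, the partner of SMC4, did not pass in any comparison (2-extra over no-extra log2 0.09, adjusted p = 0.154).

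The calls on Mki67 and Cenpf depended on the fit and on 2-extra replicate 1. Mki67 encodes Ki-67, a coat protein of mitotic chromosomes used as a proliferation marker, and had 239.6, 172 and 159.6 CPM in 2-extra cells, 200.5, 215 and 225 in no-extra cells and 289.8, 260.0 and 257 in uninduced cells. Cenpf, a large kinetochore and nuclear matrix protein, had 182, 127 and 116 CPM in 2-extra cells, 130.1, 133 and 132 in no-extra cells and 174, 174 and 177 in uninduced cells. In both, 2-extra replicate 1 lay far above replicates 2 and 3. In the edgeR fit as reported neither passed in any comparison (Mki67 in 2-extra over uninduced cells log2 -0.50, SE 0.154, adjusted p = 0.0605). Without 2-extra replicate 1, Mki67 was 1.27-fold lower in 2-extra than in no-extra cells (adjusted p = 9.42e-05), 1.61-fold lower in 2-extra than in uninduced cells (adjusted p = 9.25e-10) and 1.27-fold lower in no-extra than in uninduced cells (adjusted p = 8.41e-06). Cenpf without that library was 1.43-fold lower in 2-extra than in uninduced cells (adjusted p = 1.23e-11) and 1.33-fold lower in no-extra than in uninduced cells (adjusted p = 2.17e-10), with no call between 2-extra and no-extra cells (adjusted p = 0.149). With all libraries, DESeq2 called Mki67 lower in 2-extra than in uninduced cells (adjusted p = 0.0241). Limma-voom called Mki67 lower than in uninduced cells both in 2-extra (adjusted p = 0.000797) and in no-extra cells (adjusted p = 0.0256), and Cenpf likewise in 2-extra (adjusted p = 0.0196) and in no-extra cells (adjusted p = 0.0129). With only the 6 libraries compared, which leaves out all 2-extra libraries, edgeR called Mki67 (adjusted p = 1.06e-05) and Cenpf (adjusted p = 1.50e-09) lower in no-extra than in uninduced cells.

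Some calls that were not made with all 9 libraries were made with 1 left out. Without 2-extra replicate 1, Birc5 (adjusted p = 0.0475), Bub1b (adjusted p = 0.0242), Ccnb2 (adjusted p = 0.0428) and Kif4 (adjusted p = 0.0336) also passed as lower in no-extra than in uninduced cells. Cdca8 (adjusted p = 0.0336) and Cenpa (adjusted p = 0.0225) then passed as higher in 2-extra than in no-extra cells. In 2-extra over uninduced cells, Ccna2 (adjusted p = 0.0215), Incenp (adjusted p = 0.0315), Kif2c (adjusted p = 0.0262) and Nuf2 (adjusted p = 0.0425) then passed as higher and Cenpe (adjusted p = 0.0303) as lower. With another library left out, the genes that passed were Bub1b (without 2-extra replicate 3 or uninduced replicate 1), Kif4 (without no-extra replicate 3 or uninduced replicate 3) and Nuf2 (without uninduced replicate 3) as lower in no-extra than in uninduced cells, Cenpa (without 2-extra replicate 3) as higher in 2-extra than in no-extra cells, and Kif2c (without uninduced replicate 2) as higher in 2-extra than in uninduced cells. Their adjusted p lay between 0.0337 and 0.0499.

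Mki67 and Cenpf are also the longest transcripts of the 40, at 10061 bp (Mki67) and 11130 bp (Cenpf) against a median of 3656.5 bp. Over all genes tested, each gene's deviation from its mean log2 level over the 9 libraries was set against transcript length. The slope was 0.00636 per doubling of length in 2-extra replicate 1 and -0.0471 and -0.0564 in replicates 2 and 3. It was -0.00482 to 0.0149 in no-extra and 0.0178 to 0.0459 in uninduced libraries. Library 2-extra replicate 1 also differed more from its group, with a chi-square per degree of freedom of 2.67 and 3.02, against 1.35 to 1.80 for the other pairs within a group. Across the 40 genes, which share these libraries, the Pearson correlation of change with length was -0.151 for 2-extra over no-extra, -0.355 for 2-extra over uninduced and -0.351 for no-extra over uninduced cells, as a description. With an offset over transcript length in the fit, Mki67 was 1.29-fold lower in 2-extra than in uninduced cells (adjusted p = 0.0396) and Cenpf was 1.28-fold lower in no-extra than in uninduced cells (adjusted p = 0.04905). The part of length in these differences was not tested further.

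**Figure D5:**
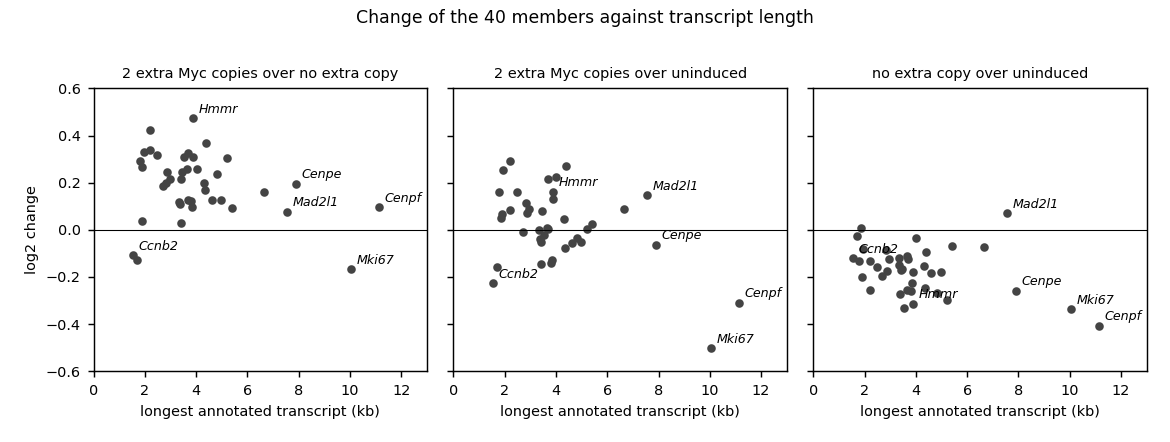
log2 change of each of the 40 genes against the length of its longest annotated transcript (kb), in the 3 comparisons. Most genes are shorter than 6 kb and spread around the medians given in the text. Mki67 and Cenpf, the longest, lie lowest in the panels against uninduced cells.

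Levels can be compared between genes only per length, here as CPM per kb of the longest annotated transcript, averaged over a group. In uninduced cells the order ran from Top2a (206), Ccnb1 (193), Cdc20 (173) and Ube2c (107) down to Mad2l1 (15.1), Kif4 (14.6) and Nuf2 (12.8). The first 4 were also the highest in 2-extra cells, with Ccnb1 (216) above Top2a (207), and in no-extra cells, with Ccnb1 (174) above Top2a (168). A longest transcript need not be the one expressed, so these levels are approximate. No member had a near-identical copy elsewhere among annotated transcripts. Whether reads were counted by strand is not stated, and exons on the other strand covered 29.3% of Kif20a, 22.8% of Ube2c, 15.1% of Kif4, 12.5% of Ccna2 and 11.1% of Prc1. The partner of Ube2c, Tnnc2, had under 1 CPM in each group. The partner of Kif20a, Cdc23, averaged 150.5 CPM in 2-extra, 137 in no-extra and 136 in uninduced cells. That of Ccna2, Exosc9, averaged 55.7 CPM in 2-extra, 49.4 in no-extra and 49.99 in uninduced cells. Both partners had their highest mean in 2-extra cells. Kif20a and Ccna2 were called higher in 2-extra than in no-extra cells. Against uninduced cells neither passed (adjusted p = 0.940 for Kif20a and 0.0945 for Ccna2), and Kif20a averaged 319 CPM in 2-extra and 318 in uninduced cells. The part of shared reads was not tested. Pdzd11, the partner of Kif4, and Rccd1, the partner of Prc1, averaged 19.6 to 22.5 CPM.

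Among 115 other genes of the mitotic pathway, taken from a list chosen with earlier results of these data known, 25 rose and 2 fell in 2-extra over no-extra cells, against backgrounds of 8.30% and 7.70% of all genes. In no-extra against uninduced cells 3 rose and 25 fell, against 7.10% and 6.39%. In 2-extra over uninduced cells 14 rose and 12 fell, near the backgrounds of 12.8% and 12.1%. Among the 4530 genes at or above the lowest member's level the backgrounds were 18.4% and 8.26%, 10.7% and 11.4%, and 24.0% and 14.6%, in the same order. Not all of the 115 genes reach that level. DESeq2 called 18 and 0, 1 and 9, and 9 and 3 in these comparisons. Over all genes it called 612 and 328, 325 and 363, and 990 and 645. The same backgrounds apply to the lists within the 115, whose small counts are given as counts only. The median log2 changes of the 115 genes were 0.08, -0.06 and 0.01. Of 32 other centromere and kinetochore genes, 5 rose and 1 fell in 2-extra over no-extra cells, and DESeq2 called 1 and 0. Kntc1 encodes ROD, part of the complex with ZW10 that carries checkpoint proteins to kinetochores. It was 1.28-fold lower in 2-extra than in uninduced cells (log2 -0.35, SE 0.048, adjusted p = 1.34e-06) and 1.24-fold lower in no-extra than in uninduced cells (log2 -0.31, SE 0.048, adjusted p = 1.32e-05). Hjurp, the chaperone of CENP-A, was 1.19-fold lower in no-extra than in uninduced cells (log2 -0.26, SE 0.048, adjusted p = 0.000434).

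Of 20 genes of the anaphase-promoting complex and its regulators, 3 rose and 1 fell in 2-extra over no-extra cells, and 6 rose and 1 fell over uninduced cells; DESeq2 called 3 and 0 in each. In no-extra against uninduced cells 0 rose and 1 fell (1 and 1 at an unadjusted p below 0.05, 0 and 0 in DESeq2), with a median log2 change of 0.01. Pttg1, securin, the inhibitor of separase, had 45.5, 42.2 and 42.6 CPM in 2-extra cells, 33.9, 39.99 and 38.7 in no-extra cells and 32.96, 32.9 and 30.9 in uninduced cells and was 1.34-fold higher in 2-extra than in uninduced cells (log2 0.43, SE 0.080, adjusted p = 0.000132). Trip13, an ATPase that takes apart the checkpoint complex, was 1.23-fold higher in 2-extra than in no-extra cells (log2 0.30, SE 0.064, adjusted p = 0.000934) and 1.27-fold higher than in uninduced cells (log2 0.35, SE 0.062, adjusted p = 7.80e-05). Of 15 cohesin, condensin and cohesion protection genes, 0 rose and 7 fell in no-extra against uninduced cells in the edgeR test; at an unadjusted p below 0.05 these counts were 0 and 8, and in DESeq2 0 and 3. Sgo2a, shugoshin 2, which protects cohesin at centromeres, was 1.24-fold lower (log2 -0.31, SE 0.048, adjusted p = 1.37e-05). In 2-extra over uninduced cells 0 of these 15 rose and 6 fell (0 and 7 at an unadjusted p below 0.05, 0 and 1 in DESeq2).

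Of 31 other spindle and cytokinesis genes, 13 rose and 0 fell in 2-extra over no-extra cells, and 0 rose and 10 fell in no-extra against uninduced cells in the edgeR test. At an unadjusted p below 0.05 these counts were 15 and 0, and 0 and 15; in DESeq2 they were 11 and 0, and 0 and 3. Gtse1, a microtubule-binding protein of G2 and mitosis, was 1.19-fold higher in 2-extra than in no-extra cells (log2 0.25, SE 0.039, adjusted p = 2.18e-05). Kif18b, a plus-end kinesin, was 1.22-fold higher (log2 0.28, SE 0.049, adjusted p = 8.00e-05), and Ckap2, a spindle protein, was 1.22-fold higher (log2 0.29, SE 0.050, adjusted p = 0.000108). Ckap2l, radmis, a relative of Ckap2, was 1.23-fold lower in no-extra than in uninduced cells (log2 -0.30, SE 0.060, adjusted p = 0.000462).

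Of 17 entry switch and transcriptional regulator genes, 1 rose and 0 fell in 2-extra over no-extra cells (4 and 0 at an unadjusted p below 0.05, 1 and 0 in DESeq2). In 2-extra over uninduced cells 3 rose and 1 fell, against backgrounds of 12.8% and 12.1%, and in no-extra against uninduced cells 2 rose and 2 fell, against 7.10% and 6.39%. DESeq2 called 3 and 0, and 1 and 0. E2f4, a repressor that sits in DREAM, was the gene that rose over no-extra cells (log2 0.17, SE 0.040, adjusted p = 0.00397). Foxm1, the forkhead activator of mitotic genes, had 124, 121 and 118 CPM in 2-extra cells, 117, 126 and 124 in no-extra cells and 125, 131 and 131 in uninduced cells, with overlap between 2-extra and no-extra libraries and no call (adjusted p = 0.897 there). Mybl2, which encodes B-MYB, had 831, 878 and 893 CPM in 2-extra cells, 819, 866 and 870.1 in no-extra cells and 777, 772 and 798 in uninduced cells. The uninduced libraries were the lowest and the other groups overlapped. Mybl2 was 1.11-fold higher in 2-extra than in uninduced cells (log2 0.15, SE 0.035, adjusted p = 0.00152). It was also 1.09-fold higher in no-extra than in uninduced cells (log2 0.12, SE 0.035, adjusted p = 0.0153). That call was lost without no-extra replicate 2 or 3, or uninduced replicate 2 (adjusted p of 0.000344 to 0.0911). Cdc25a was the other gene that rose in no-extra against uninduced cells (log2 0.16, SE 0.045, adjusted p = 0.0166). The 2 that fell there were Nfyb, of NF-Y (log2 -0.23, SE 0.051, adjusted p = 0.00165), and Rbl1 (log2 -0.37, SE 0.110, adjusted p = 0.0200). DESeq2 made none of these calls (adjusted p = 0.181 for Cdc25a, 0.0568 for Nfyb and 0.229 for Rbl1).

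Markers of other cell types also differed between the groups. Summed over 10 fibroblast markers they came to 62 to 67.9 CPM in 2-extra, 88.5 to 101 CPM in no-extra and 40.1 to 41.9 CPM in uninduced libraries, with Postn, Lum and Dcn under 1 CPM. The 10 extraembryonic endoderm markers came to 254 to 264, 349 to 375 and 284 to 291 CPM in the same groups, with Gata6, Sox17, Sox7 and Foxa2 under 1 CPM. The 8 trophectoderm markers came to 190.1 to 206, 218 to 244 and 150.4 to 163 CPM, with Cdx2, Elf5 and Hand1 under 1 CPM. In all 3 lists the no-extra libraries, where mitotic transcripts were lowest, were the highest. The ESC markers also summed highest in no-extra libraries, at 3914 to 3998 CPM. In no-extra against uninduced cells 5 of the 10 ESC markers rose and 2 fell, against backgrounds of 7.10% and 6.39% of all genes. Of the markers tested, 4 of 7 fibroblast, 2 of 6 extraembryonic endoderm and 3 of 5 trophectoderm markers rose and 0 fell. None of the markers was at 0 in every library. Their part in the mitotic differences was not tested.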

How the data were processed

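The authors deposited 1 table of expected counts per gene, made with RSEM 1.17 per the submitters' processing notes, where cutadapt, Picard and limma are listed too. The build was GRCm38 and the column names give annotation release 84. Which aligner was used is not given here. Total RNA of sorted cells was read from 1 end over 75 bp, per the labels. Names, coordinates and transcript lengths came from GENCODE M21, which named 35432 of 35771 identifiers.

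The counts were rounded, filtered by group (filterByExpr, 13424 genes with 99.8% of counts) and tested in edgeR 4.0.16 (R 4.3.3; quasi-likelihood F-test) with TMM scaling, all 9 libraries and a coefficient for each group; p-values were adjusted by Benjamini-Hochberg over all genes tested. A call is an adjusted p below 0.05. Adjusted p-values are from this test where no other is named. SE was taken as |log2 change| over the root of F. A two-sided exact permutation test of 3 against 3 libraries cannot give a p below 0.1. The common BCV (biological coefficient of variation) was 0.0394. Promoter windows were RefSeq sequences of GRCm38.p6, searched on both strands. Near-identical copies were sought with minimap2 2.31-r1302 (95% identity over 50% of a transcript).

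Alternatives were DESeq2 1.42.0, limma-voom (limma 3.58.1), other scaling factors, no filter, only the 6 libraries compared, an offset over transcript length, a replicate block, both, and each library left out. Deviations of same-numbered libraries from their group means correlated at -0.0813 to 0.0807, so the numbers were not taken as pairs. Replicates of a group differed beyond sampling noise in every pair.

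The 40 genes and all other lists were chosen with earlier results of these data known. In each role, values per library are given for up to 3 genes with the smallest p over the 3 groups and for genes called against the main direction. Of each pathway list up to 3 genes per direction and comparison could be named, those with the smallest p. Not every gene that this rule names is reported here. Mki67, Cenpf, Spc25 and Foxm1 were given beyond that rule, after their values were seen. Exonic overlap used the annotation alone.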

Additional observations from a re-analysis of the deposited data

How the results depend on the processing

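Of the calls on the 40 genes, 22 of 27 (2-extra over no-extra), 8 of 13 (2-extra over uninduced) and 12 of 24 (no-extra over uninduced) held in all 19 settings, and no call changed sign in any of them. DESeq2 gave 14 genes lower in no-extra than in uninduced cells (363 over all genes) and 2 lower in 2-extra than in uninduced cells (645 over all genes). Library size alone gave 1 lower in 2-extra than in no-extra cells (1354 over all genes). The median log2 change in 2-extra over no-extra cells was 0.16 with library size alone and 0.21 in DESeq2. In 2-extra over uninduced cells it was 0.0246 with DESeq2 size factors, -0.00464 with library size alone, 0.00464 with upper-quartile factors and 0.0284 in DESeq2. In no-extra over uninduced cells it was -0.15 with library size alone and -0.18 with upper-quartile factors. With 1 library left out, genes higher in 2-extra than in no-extra cells numbered 24 to 28 and lower 0 to 1, with a median of 0.19 to 0.22. For 2-extra over uninduced cells the numbers were 8 to 13 and 2 to 6, with a median of 0.0112 to 0.0377. For no-extra over uninduced cells they were 0 and 15 to 30, with a median of -0.18 to -0.15. Over all genes, leaving out 1 library gave 750 to 1466 higher and 647 to 1098 lower in 2-extra over no-extra cells. It gave 1306 to 2004 and 1106 to 1715 in 2-extra over uninduced cells, and 622 to 1083 and 555 to 1118 in no-extra over uninduced cells. With the replicate block, 28 genes were higher in 2-extra than in no-extra cells, 9 higher and 4 lower than in uninduced cells, and 26 lower in no-extra than in uninduced cells; the library numbers were not shown to pair the libraries. The cause of these shifts was not tested. Depth and the 3 libraries per group limit what can be seen: the smallest rise called in 2-extra over no-extra cells was 1.09-fold.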

Other observations

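DNA replication genes, active in S phase, were called in both directions in each comparison. Of 38 origin and fork genes, 4 rose and 8 fell in 2-extra over no-extra cells, 8 rose and 4 fell in 2-extra over uninduced cells, and 6 rose and 2 fell in no-extra against uninduced cells. The backgrounds over all genes were 8.30% and 7.70%, 12.8% and 12.1%, and 7.10% and 6.39%. DESeq2 called 1 and 1, 6 and 0, and 2 and 0. Median log2 changes of the 38 genes were -0.03, -0.00 and 0.04. Without 2-extra replicate 1 the first count was 5 higher and 1 lower (1466 and 1098 over all genes). Ccne1, cyclin E1, which starts S phase, had 309, 319 and 344 CPM in 2-extra cells, 314, 303 and 315 in no-extra cells and 243, 263 and 269 in uninduced cells. The uninduced libraries were the lowest and the other groups overlapped. It was 1.26-fold higher in 2-extra than in uninduced cells (log2 0.33, SE 0.043, adjusted p = 5.93e-07) and 1.20-fold higher in no-extra than in uninduced cells (log2 0.27, SE 0.043, adjusted p = 3.89e-05). Mcm5, a subunit of the replicative helicase, had 373, 408 and 412 CPM in 2-extra cells, 453, 435 and 447 in no-extra cells and 423, 426 and 455 in uninduced cells and was 1.12-fold lower in 2-extra than in no-extra cells (log2 -0.16, SE 0.040, adjusted p = 0.00524), a call lost without 2-extra replicate 1 (adjusted p of 0.000165 to 0.0651 over the 19 settings).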
